A study of Mus musculus with 8 samples.

Results

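Iron and heme handling is described here through 10 genes of 42649 in the deposited table: Trf, Tfrc, Slc11a1, Slc40a1, Fth1, Ftl1, Hpx, Hp, Hmox1 and Blvrb. The genes were taken by symbol, each symbol named a single row, and all 10 passed the filter on low counts. They were chosen by name with their counts and fold changes in this same diet comparison already known, so their differences between diets are given as a description with no test. RNA came from macrophages of liver metastases in C57BL/6 mice. The control diet (CD) of 4 mice held 10% of its calories as fat, and the high-fat diet (HFD) of the other 4 held 60%. Feeding began 6 weeks before an injection into the spleen of MC38, a single colon carcinoma line of mouse origin, and metastases were collected 19 days afterwards. All animals thus carried the same tumour line, and cells positive for CD45, CD11b and F4/80 were sorted from each. The age and sex of the mice are not given here.

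Macrophages of the liver and spleen recycle iron from aged red cells. Hemoglobin released into plasma is bound by haptoglobin and free heme by hemopexin, and both complexes are taken up by receptors. Inside the cell heme oxygenase opens the heme ring, and the freed iron is stored in ferritin or leaves through ferroportin, the only known iron exporter of vertebrate cells. Iron in plasma travels on transferrin and enters cells through the transferrin receptor. When iron is scarce, iron regulatory proteins bind a hairpin called the iron-responsive element. Binding in the 5′ untranslated region blocks translation, and binding in the 3′ untranslated region stabilises the transcript. RNA counts therefore cannot show the translational part of this control.

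The hairpins are shown because they group 4 of the 10 genes by a feature that was not used to choose them. The search used a C, 5 bases, the loop CAGTGN and 5 bases that pair with the first 5 (G with T allowed), on the sense strand of GENCODE M21 transcripts (GRCm38). Of 21901 protein-coding genes, 0.142% had such a match in a 5′ untranslated region and 0.589% in a 3′ untranslated region. Fth1, Ftl1 and Slc40a1 had a single match each in the 5′ region, and Tfrc had 4 in the 3′ region, of which the first and the last are printed. Among the other iron genes considered below, the matches listed were in the 5′ region of Alas2 and the 3′ region of Bola3. That list may not cover all of those genes, Fech, Hspa9 and Ftmt among them, so an unlisted gene is not read as having no match. The other 6 of the 10 genes had no match to these letters. Each line shows 27 bases, 5′ to 3′, with the loop in capitals.
Fth1 (chr19:9982733-9982759, plus strand): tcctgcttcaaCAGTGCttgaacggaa
Ftl1 (chr7:45459780-45459806, minus strand): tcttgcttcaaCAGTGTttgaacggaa
Slc40a1 (chr1:45925466-45925492, minus strand): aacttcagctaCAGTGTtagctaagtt
Tfrc, match at chr16:32631220-32631246, plus strand: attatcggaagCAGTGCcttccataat
Tfrc, match at chr16:32631711-32631737, plus strand: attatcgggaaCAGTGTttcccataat
Alas2 (chrX:150547459-150547485, plus strand): tggttcgtcctCAGTGCagggcaacag

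Total counts ran from 37180157 to 55717378 per library. CD replicates 3 and 4 stood apart: the summed level of 14 neutrophil markers was 103800 and 105700 counts-per-million (CPM, scaled by edgeR's TMM method) there, against 368 to 6859 in the other 6 libraries. That sum was mostly S100a8, S100a9 and Retnlg, at 71830, 19040 and 11990 CPM in CD replicate 3, and not all 14 markers followed it, as given with Hp. CD replicates 3 and 4 differed in other ways too, with 34495 and 33449 genes detected against 21571 to 24556. Ribosomal protein genes took 1.54% and 1.75% of their counts against 4.70% to 5.92%, and mitochondrial genes took 9.15% and 10.7% against 2.58% to 7.68%. The part of each in the differences these libraries carry was not tested. HFD replicate 1 stood apart in another way, with a TMM factor of 2.02 against 0.690 to 1.21 elsewhere. The 8 macrophage markers, with Ptprc, Itgam and Adgre1 of the sort among them, had counts in every library. Adgre1, which encodes F4/80, ranged from 93.4 to 682 CPM and was lowest in CD replicates 3 and 4. For Adgre1 3 HFD libraries lay above all CD libraries, and its log2 fold change, HFD minus CD, was 1.56 ± 0.49 (SE). Of the 8 markers 4 were above 0 and 4 below, with a median of 0.20. The part of macrophage content in the differences below was not tested. In bulk libraries fewer cells of a type and less RNA per cell cannot be told apart. Over all 17367 genes tested, edgeR called 1 gene between the diets, or 0.00576%, and with the replicate block it called 0. It called 0 of the 10 genes described here. At an unadjusted p under 0.05 there were 1 of 10 higher in HFD (5.31% of all genes) and 3 of 10 lower (7.56% of all genes), and DESeq2 called 2 of the 10, Trf higher (0.823% of all genes) and Hpx lower (2.86% of all genes). Trf and Hpx were also the 2 called by edgeR without the filter on low counts (0.279% of all genes higher, 0.694% lower) and with a term that divides the replicate numbers into 1, 2 and 3, 4 (1.03% higher, 1.02% lower). In libraries 3 and 4 of each diet alone, 2 against 2, Trf and Blvrb were called higher (11.5% of all genes) and Slc11a1, Hpx and Hp lower (16.5%). Nothing is read from these counts, because the same contrast was known when the genes were picked.

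**Figure D1:**
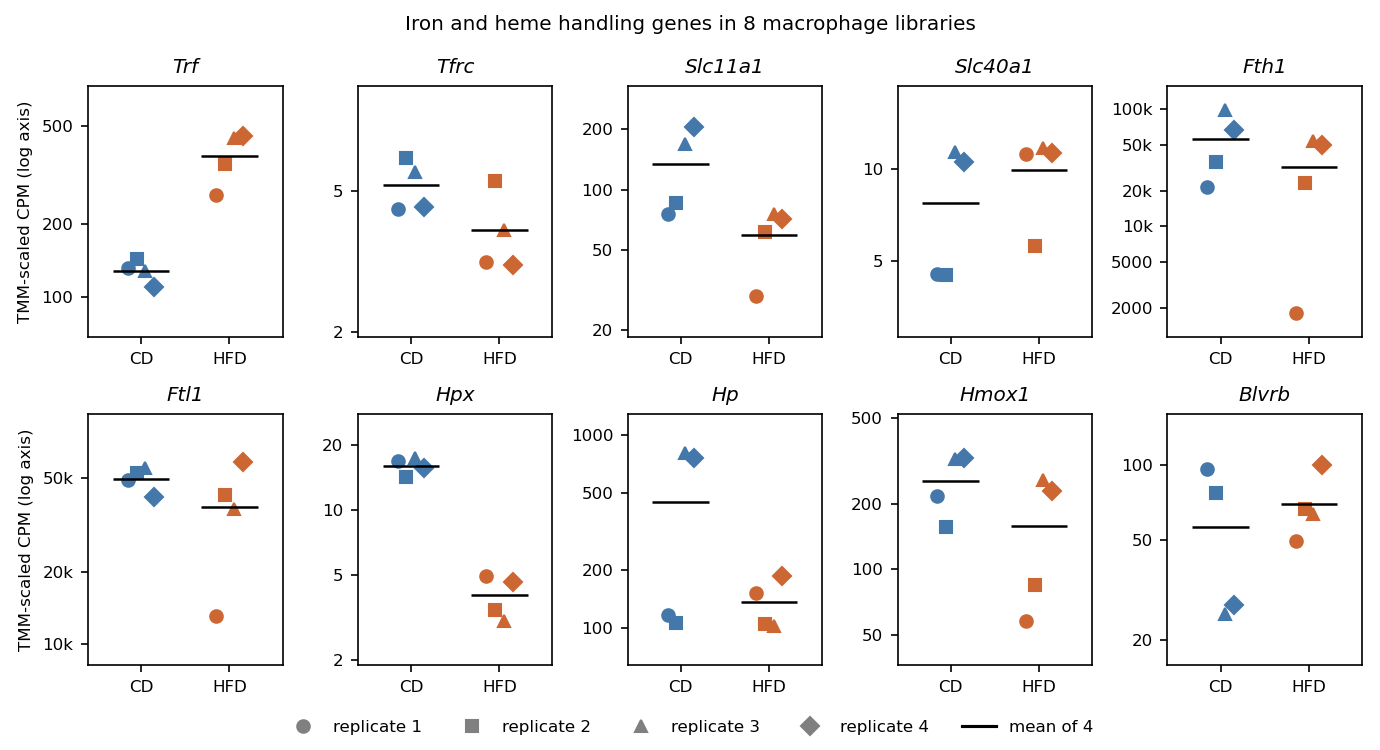
Level of each of the 10 genes in each library, as TMM-scaled CPM on a log axis. Colours mark the diets, symbols the replicate numbers and black lines the mean of 4. Trf was higher in each HFD library than in each CD library, Hpx and Slc11a1 were lower, and the diets overlapped for the other 7 genes.

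Trf (ENSMUSG00000032554, chr9:103204001-103230444, minus strand) encodes transferrin, the plasma iron carrier that hepatocytes secrete and that some macrophages also transcribe. Its level was 132, 143, 128 and 110 CPM in CD replicates 1 to 4 and 263, 350, 448 and 457 CPM in HFD replicates 1 to 4. All HFD libraries lay above all CD libraries, and the lowest HFD value was well clear of the highest CD value. This was the single gene of the 10 with all 4 HFD values above all 4 CD values, an order found in 3.57% of all genes tested. The mean was 128 ± 13.7 CPM on the control diet and 379.5 ± 91.4 CPM on the high-fat diet (SD, n = 4), and the log2 fold change, HFD minus CD, was 1.56 ± 0.30 (SE). It was 1.45 without CD replicates 3 and 4 and 1.71 without HFD replicate 1. With a covariate for hepatocyte transcripts, the mean log2 level of the hepatocyte markers, it was 1.68. Tfrc and Hpx also kept their sign with that covariate, and the value of Slc40a1 was 1.80 in place of 0.37. The sign turned for the other 6 genes, as given with each. The covariate differed between the diets, so it and diet cannot be told apart in any of these fits. Values with it, here and below, are therefore not read as diet differences freed of hepatocyte RNA.

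Trf is a member of many hepatocyte signatures, so it was set beside markers of liver cells. On the CPM scale the summed level of 22 hepatocyte markers was 115 to 175 CPM in CD and 42.7 to 78.6 CPM in HFD, the opposite order to that of Trf. On the deposited FPKM scale, which accounts for transcript length, Trf was at 3.87 to 15.9 times the level of Alb, the albumin gene, in CD and 17.9 to 48.3 times in HFD. The summed level of 10 Kupffer cell markers was 163 to 304 CPM in CD and 329 to 667 CPM in HFD. Kupffer cells are the resident macrophages of the liver, and all 10 of their markers had a log2 fold change above 0 (median 1.26, against 0.01 over all genes). Their sum and Trf were both higher in HFD. In CD the sum was 304 and 270 CPM in replicates 1 and 2 and 170 and 163 CPM in 3 and 4, with Trf at 110 to 143 CPM throughout. HFD replicate 1 had a sum of 329 CPM, near that of CD replicate 1, with Trf at 263 against 132 CPM. Single markers of the list varied between these libraries. Marco was at 83.1 CPM in HFD replicate 1 and 42.7 CPM in CD replicate 1, and Cd5l was at 46.7 CPM in both. The part of Kupffer cell RNA in the difference of Trf was not tested.

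Tfrc (ENSMUSG00000022797, chr16:32608920-32632794, plus strand) encodes the transferrin receptor. It was at 4.46, 6.19, 5.67 and 4.51 CPM in CD replicates 1 to 4 and at 3.16, 5.36, 3.89 and 3.10 CPM in HFD replicates 1 to 4. The ranges overlapped through HFD replicate 2, and the other 3 HFD libraries lay below all CD libraries. The log2 fold change was -0.42 ± 0.28 (SE), which depended on scaling and was -0.02 when libraries were scaled by size only. That scaling moved the median of all genes by 0.41, from 0.01 to 0.42. Per length, Trf exceeded Tfrc by 42.8 to 55.6 times in CD and by 122 to 278 times in HFD, a ratio within each library that does not depend on its scaling.

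Slc11a1 (ENSMUSG00000026177, chr1:74375195-74386052, plus strand) encodes NRAMP1, a metal transporter of the phagosome membrane that phagocytes use to withdraw iron and manganese from engulfed microbes. It was at 75.6, 85.9, 169 and 205 CPM in CD replicates 1 to 4. In HFD replicates 1 to 4 it was at 29.6, 61.9, 75.5 and 71.6 CPM. Groups did not overlap, but only just: the highest HFD library and the lowest CD library were almost level. Of the 10 genes 2, Slc11a1 and Hpx, had all 4 HFD values below all 4 CD values, an order found in 4.8% of all genes tested. Its log2 fold change was -1.17 ± 0.42 (SE), and it was -0.45 without CD replicates 3 and 4 and 0.83 with the hepatocyte covariate. Neutrophils also transcribe Slc11a1, and those 2 libraries held both its highest levels and the highest summed neutrophil marker levels. The part of neutrophil RNA in the difference was not tested.

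Slc40a1 (ENSMUSG00000025993, chr1:45908068-45926523, minus strand) encodes ferroportin. Its CPM was 4.53, 4.50, 11.3 and 10.5 in CD replicates 1 to 4 and 11.2, 5.61, 11.7 and 11.3 in HFD replicates 1 to 4. On this TMM scale the libraries fell at 2 levels irrespective of diet, with CD replicates 1 and 2 and HFD replicate 2 at the lower level. The FPKM values did not fall at the same 2 levels. They were 0.444, 0.466, 0.774 and 0.753 in CD replicates 1 to 4. In HFD replicates 1 to 4 they were 2.15, 0.628, 1.04 and 0.780, with HFD replicate 1 the highest. For ferroportin the log2 fold change was 0.37 ± 0.39 (SE), 1.13 without CD replicates 3 and 4 and 0.16 in replicates 3 and 4 of each diet alone. With libraries scaled by size only it was 0.92. On the FPKM scale Slc40a1 was scarce, at 0.444 to 2.15, near the 0.308 to 0.935 of Tfrc.

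Fth1 (ENSMUSG00000024661, chr19:9980598-9985092, plus strand) and Ftl1 (ENSMUSG00000050708, chr7:45457944-45459884, minus strand) encode the heavy and light subunits of ferritin, the cytosolic iron store. The heavy subunit oxidises iron on entry and the light subunit helps to form the mineral core. They were among the most abundant transcripts of these cells: together they took 7.48% to 10.6% of the counts of each CD library and 7.70% to 8.51% in HFD replicates 2 to 4. In HFD replicate 1 they took 2.99%. Ftl1 ranked first of all genes by count in CD replicates 1 and 2 and in HFD replicates 1, 2 and 4, and Fth1 ranked first in CD replicate 3.

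Fth1 was at 21740, 35290, 98880 and 66310 CPM in CD replicates 1 to 4. In HFD replicates 1 to 4 it was at 1811, 23600, 54090 and 49260 CPM. HFD replicate 1 lay far below the other 7 libraries, and the remaining HFD libraries lay inside the CD range. A log2 fold change of -0.79 ± 1.02 (SE) was smaller than its error, and it was -0.38 without HFD replicate 1, 0.16 without CD replicates 3 and 4 and 2.02 with the hepatocyte covariate. Lyz2, an abundant lysozyme gene of macrophages, was also lowest in HFD replicate 1, at 3595 CPM against 19110 to 54130 in the others.

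Ftl1 varied less. It was at 48610, 52510, 54680 and 41400 CPM in CD replicates 1 to 4 and at 13030, 42200, 36830 and 57990 CPM in HFD replicates 1 to 4. HFD replicate 1 was again the lowest, HFD replicate 4 was the highest of all 8, and the diets overlapped. The light subunit had a log2 fold change of -0.39 ± 0.75 (SE), -0.10 without HFD replicate 1 and 0.40 with the hepatocyte covariate. The ratio of Fth1 to Ftl1 in FPKM followed the replicate numbers more than the diet. It was 0.173, 0.260, 0.699 and 0.619 in CD replicates 1 to 4 and 0.0537, 0.216, 0.567 and 0.328 in HFD replicates 1 to 4. In both diets replicates 3 and 4 had a larger heavy-chain share than replicates 1 and 2.

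Counts of Ftl1 carry an uncertainty that was far smaller for Fth1 among the copies looked for, which were found by symbol only. Ftl1-ps1, Ftl1-ps2 and Ftl2-ps, copies that can share reads with Ftl1, together held 3.69% to 9.07% as many counts as Ftl1, while Fth-ps2 and Fth-ps3 held at most 0.0442% as many as Fth1. Gm22133, annotated as a miRNA gene inside Ftl1 on the same strand, held 13.97% to 16.6% as many counts as Ftl1 in each library. Gm10252, on the opposite strand, held at most 0.136%. The protocol describes no strand marking, so reads of such pairs cannot be told apart. The other 9 genes overlapped no gene of the table.

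**Figure D2:**
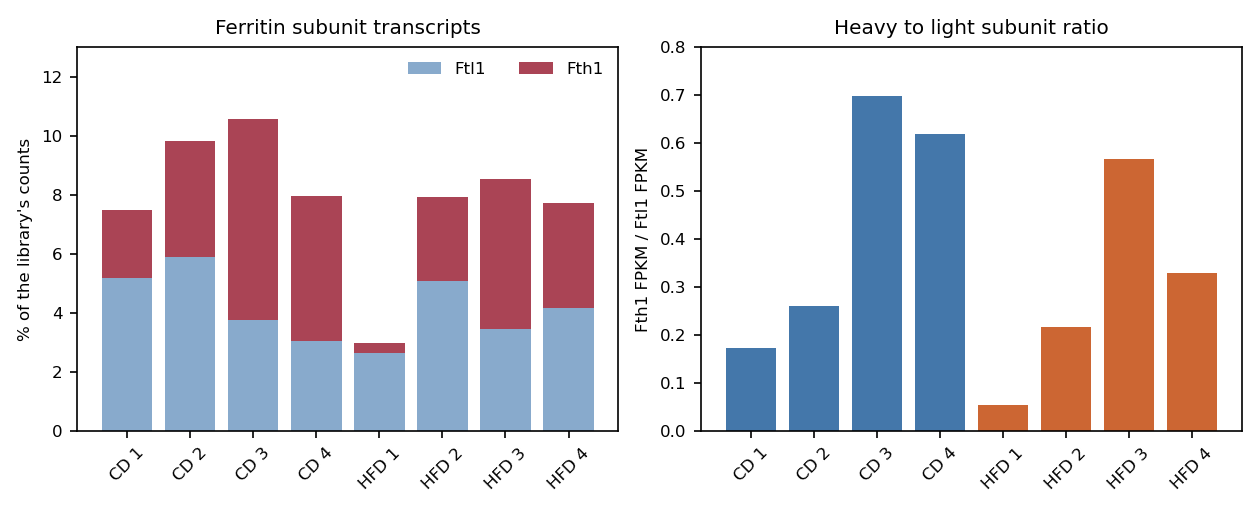
Left, share of each library's counts taken by Ftl1 and Fth1 (stacked bars, %); right, Fth1 FPKM divided by Ftl1 FPKM in each library. HFD replicate 1 holds 2.99% ferritin counts against 7.48% to 10.6% in the others, and the ratio is larger in replicates 3 and 4 of both diets.

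Hpx (ENSMUSG00000030895, chr7:105591613-105600137, minus strand) encodes hemopexin, the plasma protein that binds free heme with very high affinity. It was at 16.9, 14.3, 17.6 and 15.7 CPM in CD replicates 1 to 4 and at 4.92, 3.42, 3.04 and 4.63 CPM in HFD replicates 1 to 4. The CD libraries were nearly level, CD replicates 3 and 4 included, and all HFD libraries lay far below them. The FPKM values did not overlap either, at 6.77 to 10.01 in CD and 1.63 to 5.69 in HFD. On the TMM scale the log2 fold change was -2.01 ± 0.25 (SE), and it was -1.97 without CD replicates 3 and 4. Restricted to replicate numbers 1 and 2 it was -1.89, and to 3 and 4 it was -2.04. Without HFD replicate 1 it was -2.12, and with libraries scaled by size only it was -1.51.

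Hepatocytes are the main source of hemopexin, and their markers were lower in HFD as well. Of the 19 hepatocyte markers tested, all had a log2 fold change below 0 (median -1.53), and in 12 of them all HFD values lay below all CD values. Over all genes the median was 0.01 and that order held for 4.8%. Ass1, a urea cycle enzyme gene on that marker list, was the 1 gene edgeR called over the whole table. It held 619 to 1479 counts in CD libraries, while Cps1, also on that list, held 0 to 15 counts in any library. The part of hepatocyte RNA in the level of Ass1 was not tested. The levels of Hpx and of Alb did not keep a fixed ratio: Hpx was at 3.91, 3.53, 1.32 and 1.22 times the FPKM of Alb in CD replicates 1 to 4. In HFD replicates 1 to 4 it was at 2.00, 0.902, 0.361 and 0.399 times. The ratio was higher in replicates 1 and 2 than in 3 and 4 of the same diet. Alb itself was at 6.36 to 20.7 CPM in CD and 3.85 to 18.01 CPM in HFD, with overlap. With the hepatocyte covariate the log2 fold change of Hpx was -1.94. The covariate differed between the diets, so it and diet cannot be told apart in that fit.

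Hp (ENSMUSG00000031722, chr8:109575128-109579172, minus strand) encodes haptoglobin, the plasma protein that captures free hemoglobin, which hepatocytes secrete and which maturing neutrophils store in granules. It was at 116, 106, 811 and 765 CPM in CD replicates 1 to 4 and at 151, 105, 102 and 186 CPM in HFD replicates 1 to 4. CD replicates 3 and 4 were high and the other 6 libraries lay together. The log2 fold change was -1.72 ± 0.68 (SE) with all libraries, 0.29 without CD replicates 3 and 4 and 0.21 in replicates 1 and 2 of each diet alone. With the hepatocyte covariate it was 1.98. CD replicates 3 and 4 were also the libraries of highest neutrophil marker level: S100a8 was at 71830 and 73620 CPM there and at 91.1 to 5396 in the others. Of the 14 neutrophil markers 10 were above all other libraries in both, while Ltf, Elane and Mpo were not. Camp was below, at 4.65 and 5.02 CPM against 12.7 to 27.4 elsewhere. The share of all genes with that order was not computed, so the count is not read as particular to neutrophil markers. The ratio of Hp to S100a8 in FPKM was lowest in CD replicates 3 and 4, at 0.00488 and 0.00449, and 0.0149 to 0.714 in the others. The part of neutrophil RNA in the difference was not tested.

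**Figure D3:**
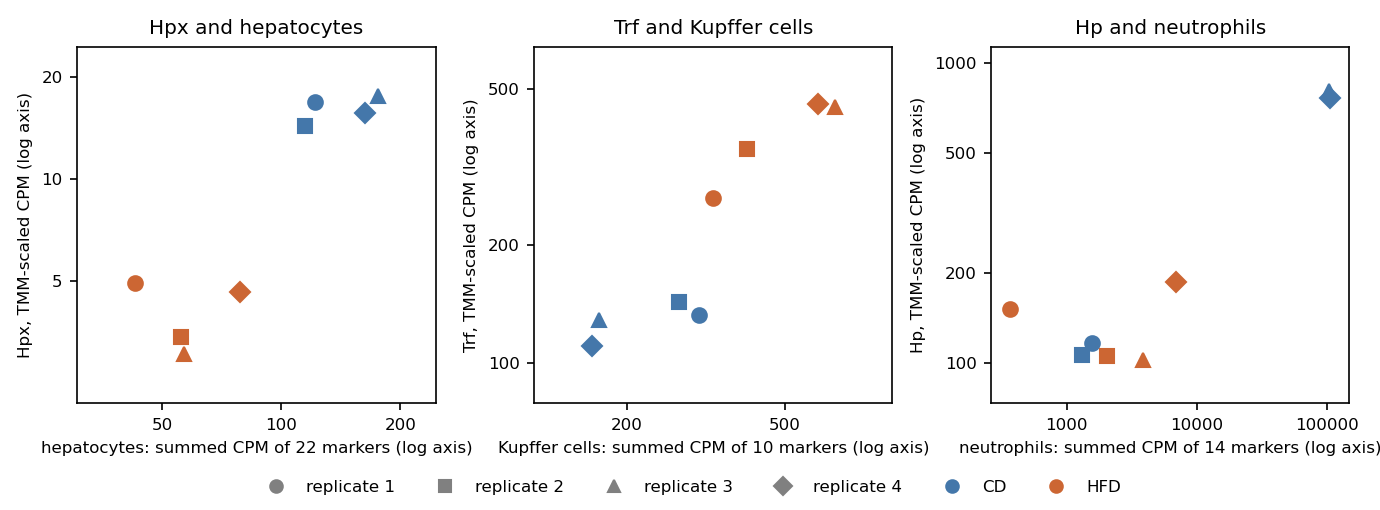
Level of Hpx, Trf and Hp (vertical, TMM-scaled CPM) against the summed level of hepatocyte, Kupffer cell and neutrophil markers (horizontal, CPM) in each library, on log axes. Hpx is between 14.3 and 17.6 CPM in every CD library and at most 4.92 CPM in HFD, and Hp is at 811 and 765 CPM in CD replicates 3 and 4 and at most 186 CPM in the others.

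Hmox1 (ENSMUSG00000005413, chr8:75093621-75100589, plus strand) encodes the inducible heme oxygenase, which opens heme to biliverdin, carbon monoxide and iron. It was at 217, 156, 322 and 326 CPM in CD replicates 1 to 4 and at 57.9, 84.8, 257 and 229 CPM in HFD replicates 1 to 4. Replicates 3 and 4 were above replicates 1 and 2 in both diets, and within each replicate number the HFD library was the lower on this TMM scale. On the FPKM scale Hmox1 in replicate 3 had the reverse order, at 113.8 in CD and 118.5 in HFD. Its log2 fold change was -0.70 ± 0.50 (SE). Replicates 1 and 2 of each diet alone gave -1.38 and replicates 3 and 4 gave -0.33, and the difference between these was not tested. With the hepatocyte covariate it was 1.29.

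Blvrb (ENSMUSG00000040466, chr7:27447978-27466144, plus strand) encodes biliverdin reductase B, an NADPH-dependent reductase of biliverdin and flavins. It was at 96.0, 77.3, 25.4 and 27.6 CPM in CD replicates 1 to 4. The HFD libraries were at 49.7, 66.4, 63.6 and 99.95 CPM in the same order. CD replicates 3 and 4 were the lowest of all 8, the reverse of Hp, and HFD values lay between the 2 levels of CD or just above. For Blvrb the log2 fold change was 0.30 ± 0.46 (SE). Its sign turned without CD replicates 3 and 4, where it was -0.32, and replicates 1 and 2 alone gave -0.57 where replicates 3 and 4 gave 1.71. With the hepatocyte covariate it was -0.74.

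Per length, the order of mean FPKM over all 8 libraries ran from Ftl1 (26540) and Fth1 (9300) through Hp (137.5), Hmox1 (91.9), Trf (70.05), Blvrb (20.6), Slc11a1 (20.4), Hpx (5.57) and Slc40a1 (0.878) to Tfrc (0.646). The FPKM ranges of neighbours overlapped throughout, except between Fth1 and Hp, where the lowest Fth1 value of 904 exceeded the highest Hp value of 312, and between Slc11a1 and Hpx, at 12.04 to 35.8 and 1.63 to 10.01. The mean order hides the diet: in HFD libraries Trf was at 85.8 to 137 FPKM, above Hmox1 in 3 of 4, and in CD libraries it was at 21.5 to 40.4, below Hmox1 in all.

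Likeness of pattern was measured as the root mean square difference of log2 CPM, centred per gene, over the 8 libraries. The genes nearest to Hpx were Ass1 (0.264), Gm28177 (0.295) and Ambp (0.297), the last a secreted product of hepatocytes and, like Ass1, a marker on the hepatocyte list. The genes nearest to Trf were Fbxl4 (0.234), Marco (0.243) and Ap1b1 (0.253). Marco, a scavenger receptor, is on the Kupffer cell list used above. For Hp they were Trim30c (0.172), Gm39556 (0.190) and Ptgs2os2 (0.223), and for Slc11a1 Kcnq1ot1 (0.160), Ugcg (0.173) and Rgs18 (0.176). Blvrb lay nearest to Selenoh (0.126), Tmem176b (0.157) and the ribosomal protein gene Rpl28 (0.165). Tfrc lay nearest to Mcm9 (0.155), Golga7 (0.173) and Sec61a1 (0.173), and Slc40a1 to Pitpnc1 (0.139), N4bp2l2 (0.169) and Gm38056 (0.174). Fth1, which spread most, had no gene nearer than H2-T23 (0.399), CT010467 (0.421) and Gm28661 (0.443), and Hmox1 lay nearest to Gm15133 (0.197), Gm44745 (0.205) and Gm45606 (0.208). For Ftl1 the nearest were Gm22133 (0.0740) and Ftl1-ps1 (0.0800), both of which can share its reads, and then Cyba (0.159), which encodes a subunit of the phagocyte oxidase.

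**Figure D4:**
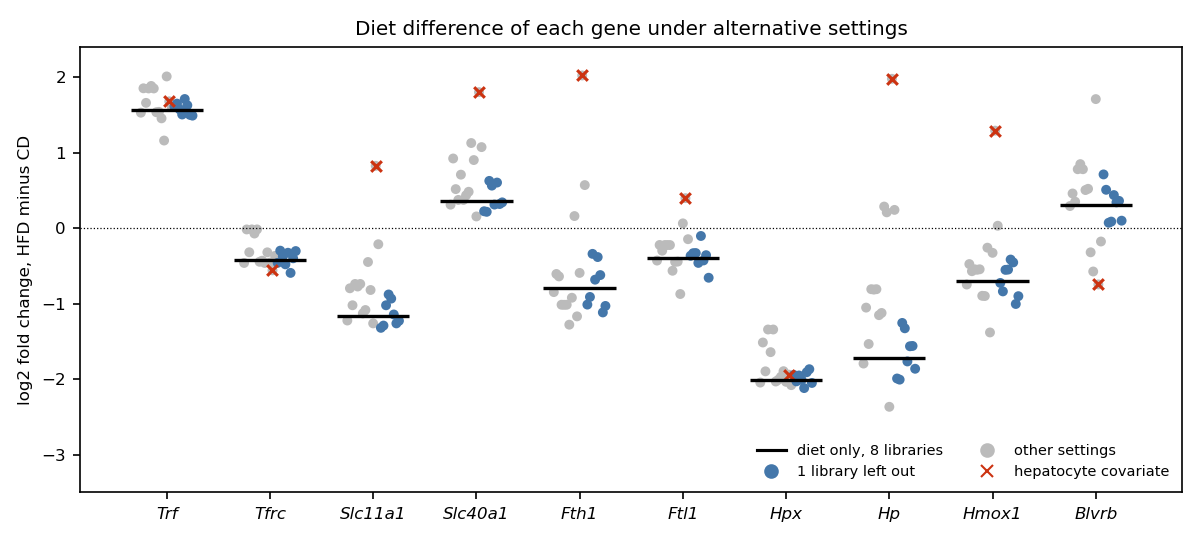
Log2 fold change (HFD minus CD) of each of the 10 genes, with the black line for the fit with diet only on 8 libraries, blue points for fits with 1 library left out, grey points for other settings and a red cross for the hepatocyte covariate. Trf stays between 1.16 and 2.01 and Hpx between -2.12 and -1.34, while 6 of the other 8 genes have settings on both sides of 0.

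The rest of the pathway was followed in 74 further genes, listed by role, of which 65 passed the filter on low counts. In edgeR 0 of 65 passed the threshold over all genes (0.00576% of all genes). At an unadjusted p under 0.05 there were 9 higher in HFD (5.31% of all genes) and 6 lower (7.56% of all genes). DESeq2 called 2 higher, Hfe and Hebp1 (0.823% of all genes), and 1 lower, Alas1 (2.86% of all genes). Of the 65, 45 had a log2 fold change above 0, against 50.8% of all genes, with a median of 0.20 against 0.01. The direction depended on the model: with the hepatocyte covariate 29 of 65 were above 0, with a median of -0.09 against -0.03 over all genes. None of the further genes named below passed in edgeR with diet only, where their adjusted p values were 0.244 to 0.950.

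The list of heme and hemoglobin uptake and transport mixes importers and receptors with the heme exporters Flvcr1 and Abcg2 and the heme-binding proteins Hebp1, Hebp2 and Pgrmc1. Its 9 tested members all had a log2 fold change above 0, with a median of 0.37. Without CD replicates 3 and 4 there were 8 of 9 above 0, and with the hepatocyte covariate 6 of 9 with a median of 0.02, where Hebp1 was at -0.39 and Slc48a1 at -0.27. Hebp1, which encodes a cytosolic heme-binding protein, was at 6.64, 6.37, 3.48 and 2.66 CPM in CD replicates 1 to 4. In HFD replicates 1 to 4 it was at 15.5, 11.4, 11.04 and 8.15 CPM, with no overlap (log2 fold change 1.26 ± 0.35, SE). Cd163, the scavenger receptor for hemoglobin bound to haptoglobin, was at 1.10, 1.84, 5.51 and 7.68 CPM in CD and 5.78, 6.96, 21.7 and 11.5 CPM in HFD. The HFD library exceeded the CD library at each replicate number, although the diets overlapped (1.52 ± 0.63, SE), and without CD replicates 3 and 4 the log2 fold change of Cd163 was 2.95. With the term dividing the replicate numbers Cd163 and Hebp1 were called higher (adjusted p = 0.0376 and 0.0365 in edgeR, 1.03% of all genes). Slc48a1, the HRG1 transporter that moves heme out of the phagolysosome, averaged 18.3 ± 3.55 CPM on the control diet and 30.6 ± 9.94 CPM on the high-fat diet (SD, n = 4).

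For iron uptake and release from endosomes 4 of 10 tested members were above 0. Mcoln1, an endolysosomal cation channel that conducts iron, was at 13.7, 14.4, 12.4 and 12.5 CPM in CD and 33.6, 18.1, 21.2 and 21.9 CPM in HFD, with no overlap (0.84 ± 0.25, SE). Lcn2, which encodes the siderophore-binding protein of neutrophil granules and inflamed tissue, was at 843 and 1003 CPM in CD replicates 3 and 4 and at 12.7 to 44.06 CPM in the other 6 libraries. Its log2 fold change was -3.76 ± 1.24 (SE) and turned to 1.28 without CD replicates 3 and 4, the libraries of high summed neutrophil marker level.

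In the export and hepcidin list 4 of 9 genes were tested. Hfe, an atypical MHC class I gene whose product binds the transferrin receptor, was at 19.8, 25.8, 14.4 and 11.8 CPM in CD and 31.97, 33.3, 74.1 and 67.0 CPM in HFD. The diets did not overlap (1.52 ± 0.38, SE), and the within-number values were 0.52 for replicates 1 and 2 and 2.52 for 3 and 4. Hamp, the gene of the iron hormone hepcidin that hepatocytes make, was near the limit of detection, at 65, 114, 15 and 9 counts in CD and 11, 19, 0 and 20 counts in HFD. Its log2 fold change of -2.08 ± 1.04 (SE) rests on these few counts. In ferritin delivery the ferritinophagy receptor Ncoa4 averaged 17.6 ± 5.82 CPM under CD and 18.7 ± 9.59 CPM under HFD (SD, n = 4), and the iron chaperones Pcbp1 and Pcbp2 had log2 fold changes of -0.23 ± 0.27 and 0.52 ± 0.29 (SE).

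In heme synthesis the first enzyme stood apart from the rest. Alas1, the housekeeping 5-aminolevulinate synthase, was at 43.1, 45.6, 104 and 74.4 CPM in CD and at 7.49, 30.7, 12.3 and 18.5 CPM in HFD. All HFD libraries were below all CD libraries (log2 fold change -1.95 ± 0.47, SE), and it was -1.37 without CD replicates 3 and 4 and -0.05 with the hepatocyte covariate. Of the 12 genes tested 8 were above 0, 5 without CD replicates 3 and 4 and 2 with the covariate. Alas2, the erythroid isoform with the hairpin shown above, was at 9.69 and 11.5 CPM in CD replicates 3 and 4 and at 0.807 to 2.83 in the others. The summed level of 10 erythroid markers, mostly globin, was 19160 and 17620 CPM in those libraries and 273 to 7053 in the others. Without CD replicates 3 and 4 the log2 fold change of Alas2 was 0.19. The part of erythroid RNA in its difference was not tested.

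Heme breakdown beyond Hmox1 and Blvrb was followed in 2 tested genes. Blvra, biliverdin reductase A, averaged 35.1 ± 5.20 CPM under CD and 52.2 ± 17.8 CPM under HFD, both n = 4 with SD. The constitutive heme oxygenase Hmox2 was at 55.1, 46.9, 140 and 117.5 CPM in CD replicates 1 to 4 and at 34.4 to 67.6 CPM under HFD. CD replicates 3 and 4 were high and the others lay together. The log2 fold change of Hmox2 was -0.73 with all libraries and 0.08 without those 2. Among 16 genes of mitochondrial iron and iron-sulfur clusters 14 were above 0 with a median of 0.46. Without CD replicates 3 and 4 there were 11 with a median of 0.07, and with the hepatocyte covariate 5 with a median of -0.25. Lyrm4, which encodes a partner of the cysteine desulfurase, was at 3.47 to 3.65 CPM in CD and 80.5, 5.54, 4.51 and 4.24 CPM in HFD. The diets did not overlap, but HFD replicate 1 decided its log2 fold change, which was 2.73 ± 0.94 (SE) with it and 0.43 without it. Hspa9, the mitochondrial chaperone mortalin, was at 48.4 ± 10.7 and 81.7 ± 27.4 CPM (SD, n = 4).

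Of 9 regulators tested 4 were above 0. Hif1a, a hypoxia-inducible factor subunit, had the smallest unadjusted p of them. It was at 48.6, 53.4, 102 and 106 CPM in CD and at 27.97, 34.8, 57.0 and 40.3 CPM in HFD, with overlap through HFD replicate 3. Its log2 fold change was -0.95 ± 0.35 (SE), and -0.36 without CD replicates 3 and 4 and 0.51 with the hepatocyte covariate. Spic, the transcription factor of iron-recycling red pulp macrophages, averaged 7.77 ± 3.53 CPM under CD and 5.06 ± 0.627 CPM under HFD (SD, n = 4), and its log2 fold change of -0.62 became 0.01 without CD replicates 3 and 4. Bach1, the heme-sensing repressor of Hmox1, was at 18.0 ± 3.25 and 20.7 ± 2.55 CPM (SD, n = 4).

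**Figure D5:**
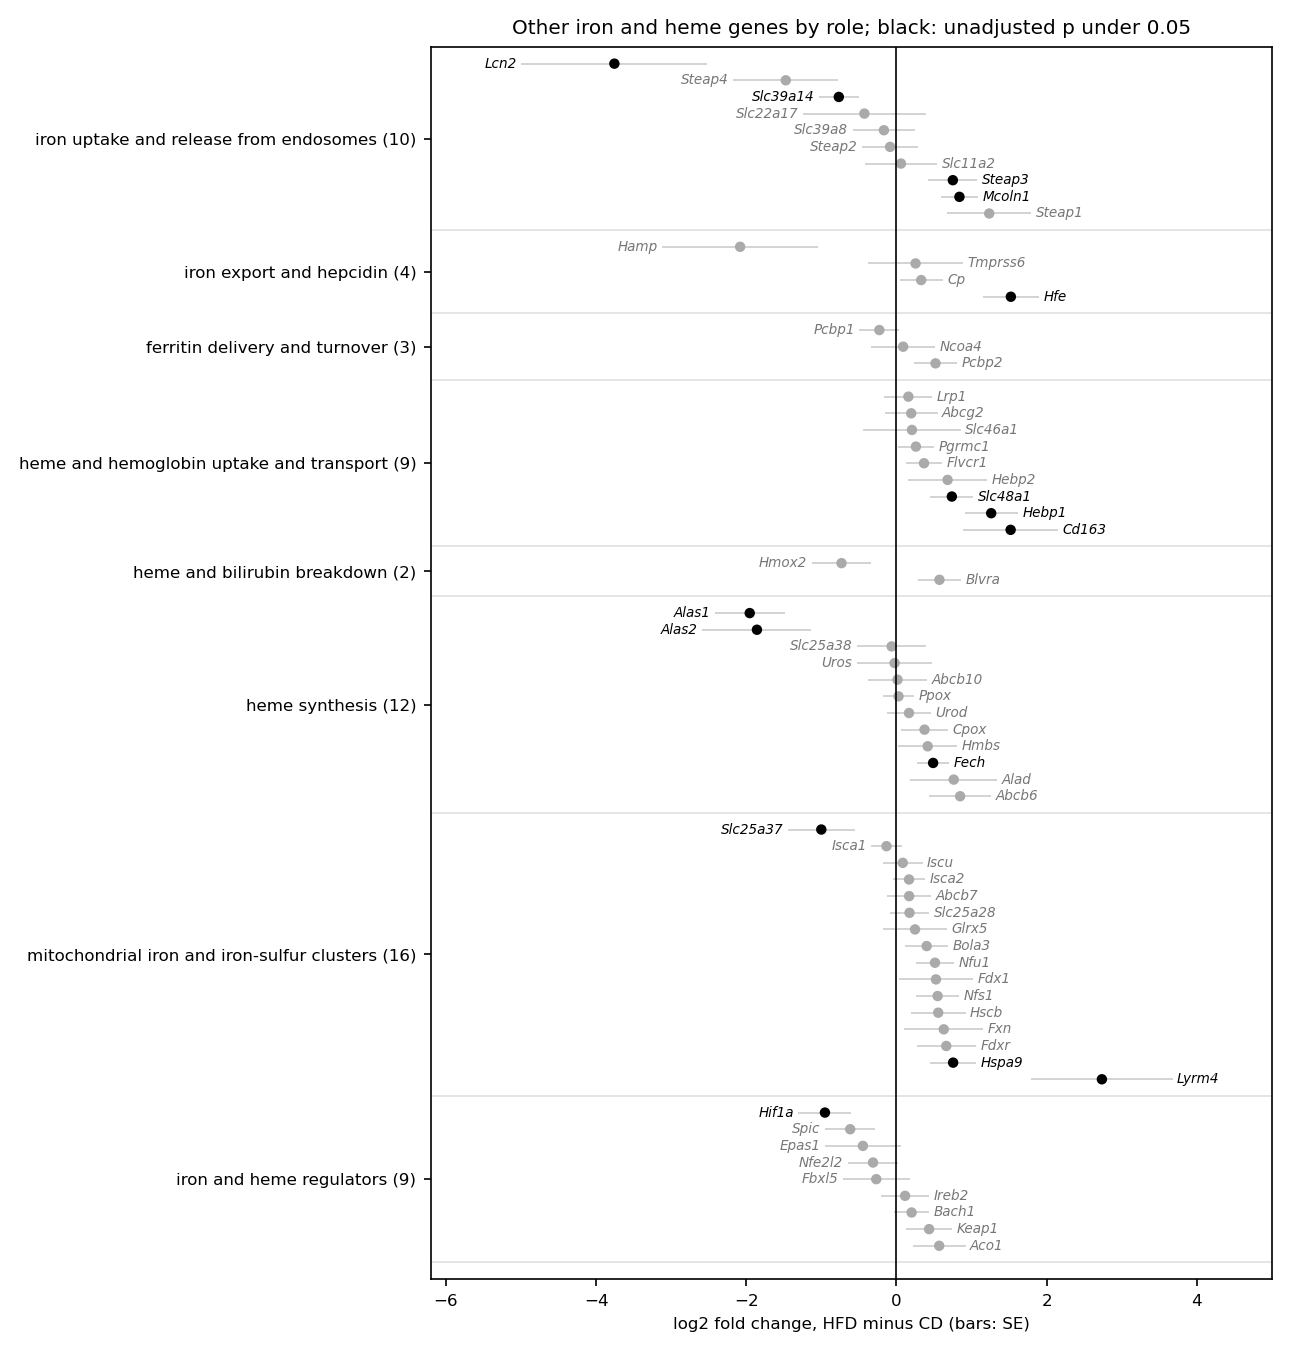
Log2 fold change (HFD minus CD, points) with its SE (bars) for the 65 tested genes by role, black where the unadjusted p was under 0.05. All 9 genes of heme and hemoglobin uptake and transport, exporters included, lie above 0 in this diet-only fit, and Alas1 and Alas2 lie apart from the other heme synthesis genes.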

How the data were processed

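Libraries were made from oligo(dT)-primed, PCR-amplified full-length cDNA, per the labels' protocols, which describe no strand marking and no molecular identifiers. Per the submitters' processing notes the tools were StringTie 1.3.4d, HISAT2 2.0.4 and cutadapt 1.9. Neither the genome build nor the counting program is stated in the sources used here. In the deposited table the authors give raw counts per gene and FPKM for each of 8 libraries. Of its 42649 identifiers, 39410 have the same start and end in GENCODE M21 (GRCm38), 8 of the 10 genes among them; Fth1 and Slc11a1 differ in their end, and gene positions are those of the deposited table.

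Counts were tested with edgeR 4.0.16 in R 4.3.3 (filterByExpr, TMM, quasi-likelihood test, two-sided, with no term but diet), with Benjamini-Hochberg adjustment over 17367 genes and a threshold of 0.05. Changes are HFD minus CD in log2 units. Alternatives used DESeq2 1.42.0 and limma 3.58.1 on log2(FPKM + 1) or log2(FPKM + 0.1) with a mean FPKM of at least 0.1. The scripts were tested on simulated data. Replicates of a diet are separate mice per the labels, and no pair of same-diet libraries agreed within sampling noise (median chi-square per gene 3.68 to 99.04).

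The genes, lists and alternatives were chosen with earlier results of these data known. For each role list the 2 genes of smallest p are named, and Hamp, Cd163, Slc48a1, Spic, Ncoa4, Bach1 and Lcn2 in any case. Genes named by likeness are the 3 nearest to each of the 10. Same-number libraries of the diets deviated together (r = 0.11, 0.29, 0.22 and 0.18 across genes), so a replicate block was run. Different numbers correlated as much within 1, 2 or within 3, 4 (0.16 to 0.32) and negatively across them (-0.32 to -0.13), so the split is between these pairs of numbers rather than by single number.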

Additional observations from a re-analysis of the deposited data

Results flagged for a closer look

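Of 32 groups of 4 libraries checked for a value far from the others, 1 was found, where chance gives about 1 in 20. Slc40a1 in HFD replicate 2 was at 5.61 CPM, while the other 3 HFD libraries were at 11.2 to 11.7 CPM. CD replicates 1 and 2 were at a similar low level of 4.53 and 4.50 CPM. The flag depended on TMM scaling. On the FPKM scale HFD replicate 2 was at 0.628, near HFD replicate 4 at 0.780, and HFD replicate 1 was the far value at 2.15.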

How the results depend on the processing

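Over the whole table the diet-only fit called 0 genes higher and 1 lower. DESeq2 called 143 and 496, edgeR without a filter on low counts 119 and 296, the fit that divides replicate numbers into 1, 2 and 3, 4 called 179 and 177, and replicates 3 and 4 alone gave 2314 and 3310. It was 0 and 0 with library size only, within replicate numbers 1 and 2, with the hepatocyte covariate, without CD replicates 3 and 4 and also without those and HFD replicate 1 (added after seeing the data). limma called 0 higher and 0 to 2 lower. With the replicate block 0 were called, and the block changed no other call. With single libraries left out, 0 to 1 were called lower and 0 higher.

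Of the further iron genes, DESeq2 called 2 of 65 higher and 1 lower (0.823% and 2.86% of all genes), edgeR without the filter 2 and 2 of 74 (0.279% and 0.694%), with the division term 2 and 0 of 65 (1.03% and 1.02%), and in replicates 3 and 4 alone 15 and 10 of 68 (11.5% and 16.5%). Other settings called 0. Of the 10 genes, 3 had a log2 fold change above 0, 7 with the hepatocyte covariate and 5 without CD replicates 3 and 4 and HFD replicate 1. The causes were not tested. Trf and Slc40a1 were above 0 and Hpx and Tfrc below 0 in all 21 alternatives, with Slc40a1 at 0.16 to 1.80. With 4 libraries a diet, levels near those of Hamp are limited by counting, and floors cover counting error only.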
